A study of Mus musculus with 8 samples.

Results

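Genes of the contractile and actin cytoskeleton apparatus that are known targets or partners of serum response factor (SRF) and its cofactors of the myocardin family were followed in C3H10T1/2 cells, an established mouse embryo line of multipotent mesenchymal cells. The members were 39 symbols taken from a list of actins, actin-binding proteins, myosins, tropomyosins, adhesion and crosslinking proteins and transcriptional regulators, and all 39 were found among the 18306 genes of the deposited count table. The cells had been kept in serum-free medium for 24 h. They were then given sphingosine 1-phosphate (S1P, a lipid ligand of G protein-coupled receptors) at 5 µM, or the vehicle of 0.1% fatty acid-free albumin, for a further 24 h. The vehicle group holds 4 libraries (1 to 4), as does the S1P group (5 to 8). Nothing in the labels states that the libraries come from separate cultures. The p-values therefore reflect only the scatter among these libraries, which could be technical.

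SRF is a transcription factor that binds a short DNA element, the CArG box. Its cofactors MRTF-A and MRTF-B (genes Mkl1 and Mkl2 here) are held in the cytoplasm by monomeric actin and enter the nucleus when actin is driven into filaments, while myocardin is a cofactor of smooth and cardiac muscle. S1P is known as an agonist of receptors whose signalling can reorganise the actin cytoskeleton. Stress fibres of fibroblast-like cells are built from actins, nonmuscle myosins, tropomyosins and crosslinkers anchored at adhesions, and smooth muscle forms such as Acta2 and Tagln are known as markers of contractile cells.

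RefSeq promoter sequence (build GRCm38.p6) was available for 33 of the 39 members, in 44 promoter rows, and was searched over the 250 bases before each start site. A CArG box was present in 10 of these 44 rows, belonging to 9 members, against 1.47% of 32851 promoter rows of the same length over all genes. The members were listed as SRF targets, so this share describes the choice of genes. A match is a description of letters, not a shown binding site. The boxes of 6 members are shown because they cover a gene that rose after S1P (Filip1l), the gene of SRF itself, and 4 cytoskeletal genes that did not pass the test. Capitals mark the CArG box, and each sequence reads 5′ to 3′ on the strand of its gene.
Filip1l, chr16:57549165-57549204, plus strand: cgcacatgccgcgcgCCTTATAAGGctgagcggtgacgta
Srf, chr17:46556200-46556259, minus strand: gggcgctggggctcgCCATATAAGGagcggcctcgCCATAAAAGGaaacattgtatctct
Vcl, chr14:20929156-20929195, plus strand: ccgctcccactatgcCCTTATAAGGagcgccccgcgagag
Cnn2, chr10:79988529-79988568, plus strand: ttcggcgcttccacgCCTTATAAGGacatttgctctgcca
Myl9, chr2:156775288-156775327, plus strand: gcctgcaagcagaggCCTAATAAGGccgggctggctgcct
Actg1, chr11:120348561-120348600, minus strand: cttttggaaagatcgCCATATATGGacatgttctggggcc
The Filip1l, Vcl and Cnn2 boxes have the same letters. The Srf promoter was the only member row with 2 boxes, 82 and 62 bases before its start site. The remaining members with a box were Fhl1, Fhl2 (in both of its promoter rows) and Myl6. Filip1l, Fhl1 and Myl6 each also had a promoter row without a box, and which start site these cells use was not tested.

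Acta2 had no strict CArG box in its window. It held 2 CArG-like boxes, in which exactly 1 of the 6 central bases is C or G, a form found in 7.24% of all promoter rows and in 5 of the 44 member rows. They begin 84 and 34 bases before the start site and are shown in capitals, because Acta2 was the most abundant, per kilobase of transcript, of the members that rose.
Acta2, chr19:34255383-34255472, minus strand: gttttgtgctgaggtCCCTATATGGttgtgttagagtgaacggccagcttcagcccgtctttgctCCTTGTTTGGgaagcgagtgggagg
Of the 5 genes that rose, Acta2, Tpm4 and Filip1l had promoter rows. Tpm4 had neither kind of box, and its window also lacked MCAT (CATTCC on either strand), which lay in 12.6% of all promoter rows and 12 of the 44 member rows, Acta2 among them. Actg2, Actb, Tagln, Myh11, Myocd and Tgfb1i1 had no entry.

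The libraries summed to 13750303 to 13761544 counts, so the most that a library with 0 counts allows, 3 counts, corresponds to 0.218 CPM (read counts scaled to the size of each library; the limit covers counting error only). Vehicle library 4 stood apart from the other 3 vehicle libraries in a way that followed the GC content of transcripts. The correlation of its deviation with GC content was 0.774 across 11634 tested genes and 0.81 across the 36 tested members, where genes are not independent replicates. Library 4 was the highest of the 4 vehicle libraries for 25 of the 36 tested members, against 38.1% of all tested genes. For members whose fold change it moved by over 1.5 times, the value without it is given as well.

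After S1P, the smooth muscle genes Tagln, Acta2 and Actg2 rose, together with the tropomyosin Tpm4 and with Filip1l, and no member fell. Of the 36 members that passed the filter on low counts, 5 rose and 31 did not pass the test (edgeR quasi-likelihood test, p-values adjusted by the Benjamini-Hochberg method over all 11844 tested genes, threshold 0.05). Over all tested genes 5.6% were called higher and 2.9% lower. At an unadjusted p under 0.05, 6 members were higher and none lower, against 13.2% and 11.7% of all tested genes. The log2 fold change (S1P minus vehicle) was above 0 for 26 of the 36, against 46.1% of all tested genes, and its median was 0.16, against -0.04. These values moved with single libraries. Without vehicle library 4 the fold change was above 0 for 32 members with a median of 0.30, without vehicle library 1 for 23 with a median of 0.09, and without vehicle library 3 for 22 with a median of 0.11. In 6 of the tested members every S1P library lay above every vehicle library, which held for 11.9% of all tested genes. The opposite order held for none of them and for 7.21% of all tested genes. The members that failed the filter were Cnn1, Myh11 and Myocd, and they are described from their counts.

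Without vehicle library 4, the number that rose was 10 of 36, against 9.49% of all tested genes called higher and 6.05% called lower in that fit. None of the members was called lower there. The same 5 genes were among them, and Actn1, Actn4, Myh10, Pdlim7 and Zyx were added. Without vehicle library 2, or without S1P library 6, 7 or 8, only Tagln, Acta2 and Actg2 were called, against 3.86%, 2.79%, 3.41% and 3.01% of all tested genes. The count was 5 without vehicle library 1 (4.1% of all tested genes) or 3 (4.88%) and 4 without S1P library 5 (4.87%). It was 10 with a surrogate variable (12.3%), 10 with offsets for GC content and length (9.6%), 8 without both vehicle library 4 and S1P library 5 (9.92%), 6 with DESeq2 (8.16%) and 4 with relative log expression (RLE) factors (5.06%). It stayed at 5 with no composition factors (5.99%), limma-voom (5.99%), no filter (3.41%) and a filter of 1 CPM in 4 libraries (5.67%). Tagln, Acta2 and Actg2 passed in the fit to all 8 libraries and in each of the 17 alternatives tried.

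**Figure D1:**
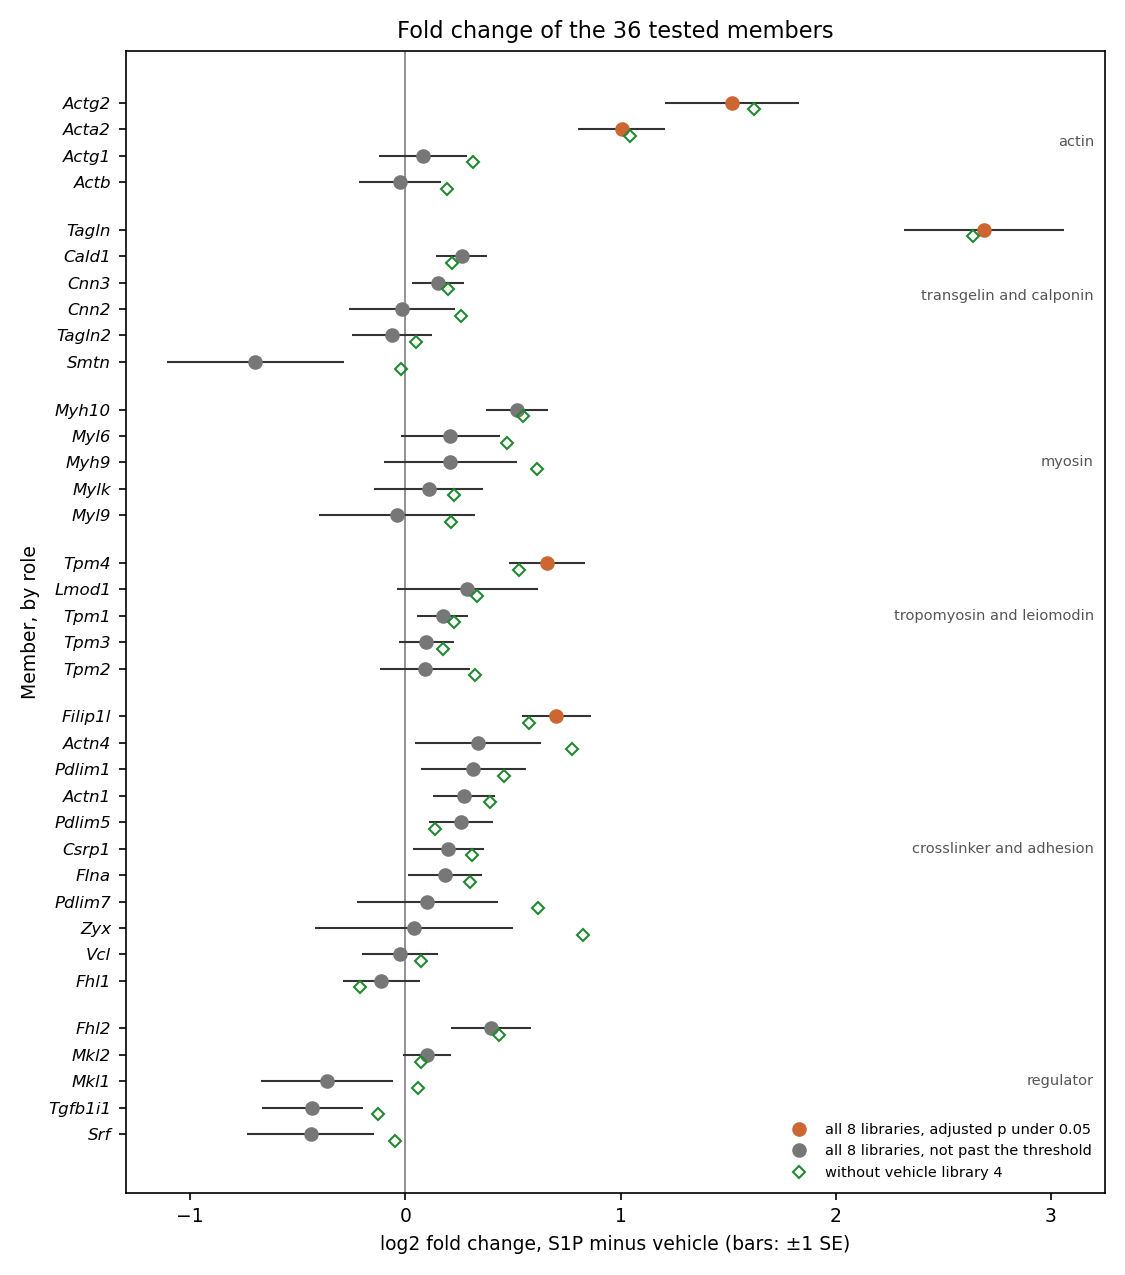
Log2 fold change (S1P minus vehicle, x axis) of each of the 36 tested members, grouped by role. Filled points are the fit to all 8 libraries with bars of ±1 SE (orange, past the threshold; grey, not past it), and open diamonds are the fit without vehicle library 4, in which Zyx moved from 0.04 to 0.82, Pdlim7 from 0.10 to 0.61 and Smtn from -0.70 to -0.02.

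The smooth muscle actins rose and the cytoplasmic actins did not pass the test. Acta2, which encodes smooth muscle alpha-actin (mm9 chromosome 19, 34315380 to 34330026), was measured at 782.5, 791, 837 and 891 CPM in vehicle libraries 1 to 4 and at 1844, 2268, 1345 and 1167 CPM in S1P libraries 5 to 8. Every S1P library was above every vehicle library, and the S1P libraries spread more widely, with library 6 at the top and library 8 at the bottom. The rise was 2.01-fold (log2 fold change 1.00, standard error 0.20, edgeR adjusted p = 0.016), and leaving out any of the libraries gave log2 fold changes of 0.82 to 1.14 and adjusted p-values of up to 0.0483.

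Actg2, the gamma-actin of visceral smooth muscle (chromosome 6, 83462699 to 83486459), held 7.25, 14.4, 11.4 and 14.2 CPM in the vehicle libraries and 22.0, 53.9, 28.0 and 31.2 CPM in the S1P libraries. The groups did not overlap, and S1P library 6 was again the highest while library 5 was the lowest. It rose 2.86-fold (log2 fold change 1.52, standard error 0.31, edgeR adjusted p = 0.0172). None of the 50-base stretches of its transcript occurs in a transcript of another gene, and for Acta2 the share was 0.353%, in each case for the longest coding transcript.

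Actb, the cytoplasmic beta-actin, held 753, 771, 762 and 1261 CPM in vehicle and 978, 944, 759 and 806 CPM after S1P. Vehicle library 4 was above every other library, vehicle library 1 was the lowest of all 8, and vehicle libraries 2 and 3 lay inside the range of the S1P group. Its fitted log2 change was -0.02 (standard error 0.19) with all libraries and 0.19 without vehicle library 4 (edgeR adjusted p = 0.946 and 0.276). Actg1, the cytoplasmic gamma-actin, gave 205, 217, 198 and 351 CPM in vehicle and 296, 289, 215 and 227 CPM after S1P, with log2 fold changes of 0.08 (SE 0.20) and, without vehicle library 4, 0.31. For Actg1, 56.7% of the 50-base stretches of its transcript occur in transcripts of other genes, mostly the gene model Gm12715, so its level is uncertain.

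Per kilobase of transcript, Acta2 stood at 406 ± 24.5 CPM per kilobase in vehicle and 814 ± 245 after S1P (mean ± SD, n = 4 each), and Actb at 462 ± 130.1 and 454 ± 55.1. On this scale Acta2 ranked 125 of 11634 genes in vehicle and 45 after S1P, while Actb ranked 105 and 99. Of the summed levels of the 4 actin transcripts per kilobase, Acta2 made up 34.1% to 44.8% in the vehicle libraries and 50.6% to 62.1% in the S1P libraries. The share of Actb was 43.2% to 51.1% in vehicle and 27.4% to 37.0% after S1P, and that of Actg2 was 0.613% to 1.18% and 1.04% to 2.25%. These shares are given as descriptions, without a test. They are uncertain, because 14.2% of the 50-base stretches of Actb and 56.7% of those of Actg1 occur in transcripts of other genes. How reads that match more than 1 gene were counted is not given.

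**Figure D2:**
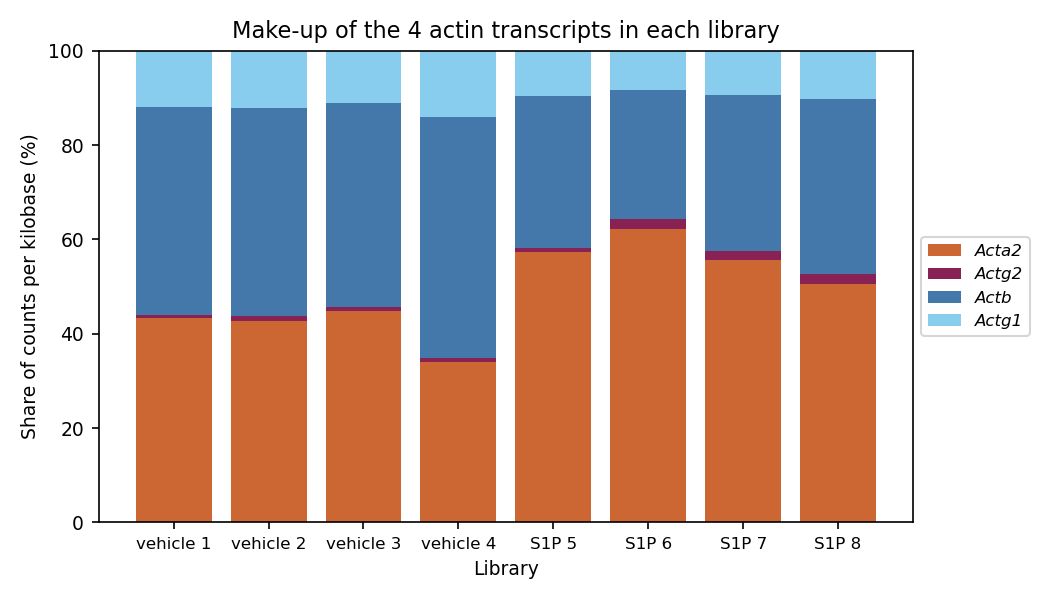
Share of each of the 4 actin transcripts in their summed counts per kilobase of transcript (y axis, %) in each of the 8 libraries (x axis). The Acta2 share runs from 34.1% to 44.8% in vehicle libraries and from 50.6% to 62.1% in S1P libraries. Actb and Actg1 share stretches of sequence with other genes, so the shares are uncertain.

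Among the transgelin and calponin genes, whose products bind along actin filaments, Tagln stood alone in passing the test. Tagln encodes transgelin (SM22), an early marker of smooth muscle differentiation (chromosome 9, 45737511 to 45744341). It held 17.0, 32.35, 18.5 and 19.5 CPM in vehicle and 88.9, 256, 119 and 98.8 CPM after S1P. Every S1P library was above every vehicle library, and the highest of the S1P group, library 6, was the only S1P library above 119 CPM. The log2 fold change was 2.69 (standard error 0.37, edgeR adjusted p = 0.0039), and it ranged from 2.23 to 2.94 when a library was left out. The span of Tagln shares 465 bases with Pcsk7, a gene at a mean of 373 counts per library against 1117.5 for Tagln, and how reads in the overlap were assigned is not given.

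Tagln2, the related transgelin of non-muscle cells, held 282.5, 459, 497 and 545 CPM in vehicle and 443, 441, 431 and 392 CPM after S1P. The S1P group lay inside the range of the vehicle group, and the log2 fold change was -0.06 (standard error 0.19, edgeR adjusted p = 0.853) and 0.05 without vehicle library 4. Of the 2 transgelin transcripts per kilobase, Tagln made up 3.43% to 6.55% in vehicle and 16.6% to 36.6% after S1P, so Tagln2 remained the more abundant in every library.

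Cnn1, the calponin of differentiated smooth muscle, was near the limit of detection, with 6, 5, 4 and 4 counts in the vehicle libraries and 9, 14, 12 and 9 counts in the S1P libraries. The groups did not overlap. Without the filter on low counts its log2 fold change was 1.20 (standard error 0.41) and did not pass (edgeR adjusted p = 0.137). The calponins of other cell types were abundant and did not pass, Cnn2 at 299.5 ± 106.9 CPM without and 296 ± 62.8 with S1P, and Cnn3 at 507 ± 40.9 and 563 ± 68.1 (SD, n = 4 each). The log2 fold change of Cnn2 moved from -0.02 to 0.26 without vehicle library 4. Cald1, caldesmon, which binds actin and myosin, was at 1426 ± 130.9 and 1709 ± 128.6 CPM with a log2 fold change of 0.26 (standard error 0.12, edgeR adjusted p = 0.212).

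Smtn, smoothelin, a protein of contractile smooth muscle, had the largest negative fold change of the 36 tested members. Its vehicle libraries held 21.3, 24.3, 23.5 and 78.5 CPM and its S1P libraries 25.1, 26.7, 17.9 and 21.2 CPM. The value of vehicle library 4 was 3.40 times the mean of the other vehicle libraries, and the remaining 7 libraries overlapped. Its fitted log2 change of -0.70 (standard error 0.41, edgeR adjusted p = 0.321) became -0.02 without that library (adjusted p = 0.948).

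None of the myosin genes passed the test with all 8 libraries. Myh10, the heavy chain of nonmuscle myosin IIB, came nearest, with 349.55, 293, 228 and 312 CPM in vehicle and 441, 466, 406 and 382 CPM after S1P. The groups did not overlap, and the log2 fold change was 0.52 (standard error 0.14, edgeR adjusted p = 0.0549). It passed without vehicle library 1 or 4, with DESeq2, with a surrogate variable and with offsets for GC content and length, which makes 5 of 17 alternatives. Myh9, the heavy chain of nonmuscle myosin IIA, held 559.5, 489, 362 and 1071 CPM in vehicle and 858, 809.97, 627 and 572 CPM after S1P. Vehicle library 4 was again the highest of all 8, and the log2 fold change moved from 0.21 to 0.61 without it (edgeR adjusted p = 0.697 and 0.0658). With the offsets for GC content and length Myh9 passed (adjusted p = 0.0266).

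The light chains Myl6 and Myl9 and the kinase Mylk, which phosphorylates the regulatory light chain, had log2 fold changes of 0.21, -0.04 and 0.11, and of 0.47, 0.21 and 0.23 without vehicle library 4, none past the test (edgeR adjusted p = 0.0674 for Myl6 without it). Myl9 spread over 49.7 to 126 CPM in vehicle and 46.9 to 122 CPM after S1P, so the groups overlapped over nearly their whole ranges. Mylk held 11.1 to 17.7 CPM in vehicle, and S1P library 7 at 22.8 CPM lay above the 12.1 to 13.65 CPM of the other S1P libraries. Myh11, the myosin heavy chain of mature smooth muscle, had 7, 10, 8 and 6 counts in vehicle and 11, 2, 3 and 1 counts after S1P, too few for the filter. Its unfiltered log2 fold change of -0.85 (standard error 0.63) did not pass (edgeR adjusted p = 0.502).

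Tropomyosins wind along actin filaments, and Tpm4 was the member of this family that rose. It held 580.2, 732, 815 and 464 CPM in vehicle and 1105, 1031, 1025 and 927 CPM after S1P (chromosome 8, 74658674 to 74677241). The groups did not overlap, with the lowest S1P library (8) above the highest vehicle library (3). The log2 fold change was 0.66 (standard error 0.18, edgeR adjusted p = 0.0494), close to the threshold, and the call was lost in 7 of 17 alternatives. These were the fits without vehicle library 1 or 2 or any S1P library, and the fit with RLE factors (adjusted p of up to 0.132). Without vehicle library 4, the lowest vehicle library for Tpm4, its log2 fold change was 0.53 (edgeR adjusted p = 0.0306). Of the 50-base stretches of its transcript, 12.1% also occur in the transcript of Gm7809.

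Tpm1, Tpm2 and Tpm3 had log2 fold changes of 0.17, 0.09 and 0.10 (SE 0.12, 0.21 and 0.13), and of 0.22, 0.33 and 0.18 without vehicle library 4, none past the test. For Tpm3, 62.4% of 50-base stretches are shared with other genes, so its value is uncertain. Of the summed level of the 4 tropomyosin transcripts per kilobase, Tpm4 made up 34.2% to 52.0% in vehicle and 52.6% to 55.4% after S1P. Lmod1, a leiomodin that nucleates actin in smooth muscle, was at 8.65 ± 3.08 CPM in vehicle and 10.6 ± 3.87 after S1P (SD, n = 4 each), with a log2 fold change of 0.29 that did not pass (edgeR adjusted p = 0.611).

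**Figure D3:**
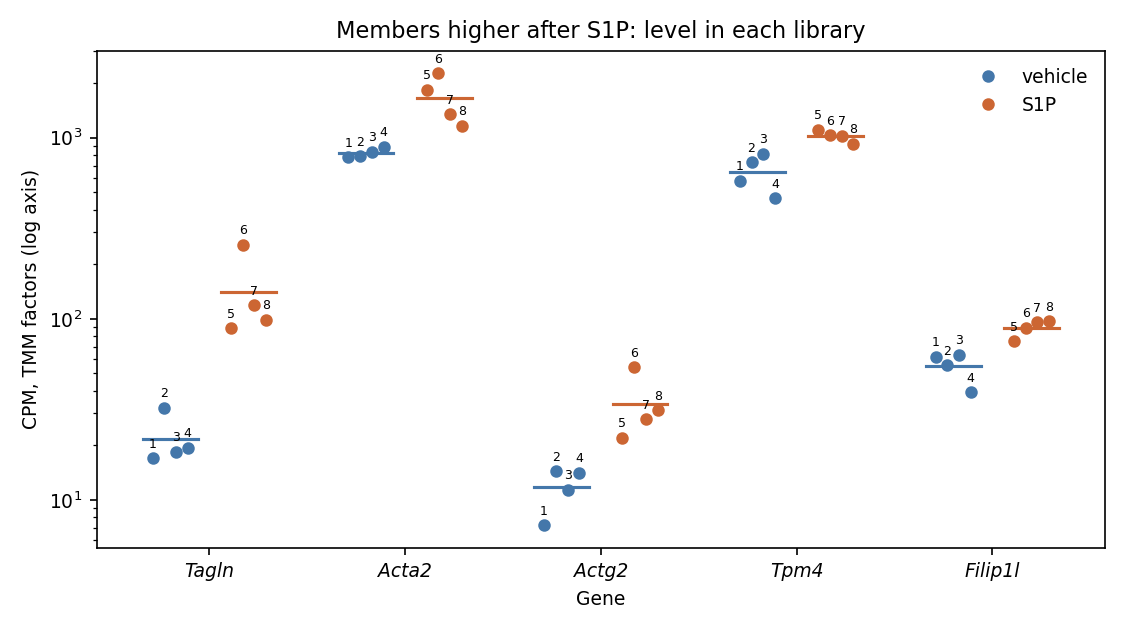
CPM of the 5 members that rose (log axis) in each library, numbered 1 to 4 for vehicle and 5 to 8 for S1P, with the group mean as a line. In all 5 genes each S1P point lies above each vehicle point, and library 6 holds the highest value of Tagln, Acta2 and Actg2, library 5 that of Tpm4 and library 8 that of Filip1l.

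Of the 11 crosslinking and adhesion genes, Filip1l rose and 10 did not pass. Filip1l, named for its likeness to a filamin-interacting protein (chromosome 16, 57353006 to 57573439), held 61.7, 55.3, 63.3 and 39.45 CPM in vehicle and 75.4, 89.4, 95.6 and 96.7 CPM after S1P. The groups did not overlap, and vehicle library 4 was the lowest. It rose 1.63-fold (log2 fold change 0.70, standard error 0.16, edgeR adjusted p = 0.0274), but lost its call without vehicle library 2 or S1P library 6, 7 or 8 (adjusted p of up to 0.0913). Without vehicle library 4 its log2 fold change was 0.57 (edgeR adjusted p = 0.0103). The whole span of Filip1l, 220434 bases, lies within another gene of the table, 2610528E23Rik, at a mean of 181 counts per library against 992 for Filip1l.

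Zyx, Pdlim7, Actn4 and Actn1 gained a call without vehicle library 4, as did Myh10. The transcripts of Zyx, Pdlim7, Actn4 and Actn1 hold 56.6%, 61.4%, 55.4% and 53.0% GC, and that of Myh10 51.5%. Srf, at 64.4% GC, gained no call. The part of GC content in these calls was not tested. Zyx, zyxin, a sensor of tension at focal adhesions, held 114, 121, 84.6 and 413 CPM in vehicle and 156, 256, 161 and 181 CPM after S1P. The 4 S1P libraries were above vehicle libraries 1 to 3 and below vehicle library 4. Its fitted log2 change was 0.04 (standard error 0.46, edgeR adjusted p = 0.963) with all libraries and 0.82 without vehicle library 4 (adjusted p = 0.0303). Pdlim7, a PDZ and LIM domain protein of stress fibres, had the same order of libraries, with 19.5, 22.4, 20.6 and 56.4 CPM in vehicle and 30.5, 36.6, 30.7 and 29.8 CPM after S1P, and log2 fold changes of 0.10 and 0.61 (adjusted p = 0.868 and 0.00803).

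Actn4, a non-muscle alpha-actinin, which crosslinks actin filaments, held 143, 177, 158 and 383 CPM in vehicle and 263, 318, 247 and 262 CPM after S1P. Its log2 fold change was 0.34 (standard error 0.29) and 0.77 without vehicle library 4 (edgeR adjusted p = 0.497 and 0.00512). Actn1, its paralogue at focal adhesions, moved from 0.27 (SE 0.15) to 0.39 (adjusted p = 0.277 and 0.0496). With offsets for GC content and length and all 8 libraries, Actn1, Actn4 and Pdlim7 passed (adjusted p = 0.0237, 0.0238 and 0.00548), and Zyx did not (log2 fold change 0.46, adjusted p = 0.309). Without both vehicle library 4 and S1P library 5, Zyx, Pdlim7 and Actn4 passed and Actn1 did not (adjusted p = 0.0734).

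Vcl, vinculin, which links integrin adhesions to actin, was at 271 ± 61.9 CPM without and 266 ± 36.3 with S1P, and Flna, filamin A, at 1436 ± 250.5 and 1632 ± 278 (SD, n = 4 each), and neither passed. Without vehicle library 4 their log2 fold changes moved from -0.03 to 0.07 and from 0.18 to 0.30. The LIM proteins Csrp1, Pdlim1, Pdlim5 and Fhl1 had log2 fold changes of 0.20, 0.32, 0.26 and -0.11, and of 0.31, 0.46, 0.14 and -0.21 without that library, none past the test. Of the vehicle libraries, library 4 was the lowest for Pdlim5 and Fhl1.

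**Figure D4:**
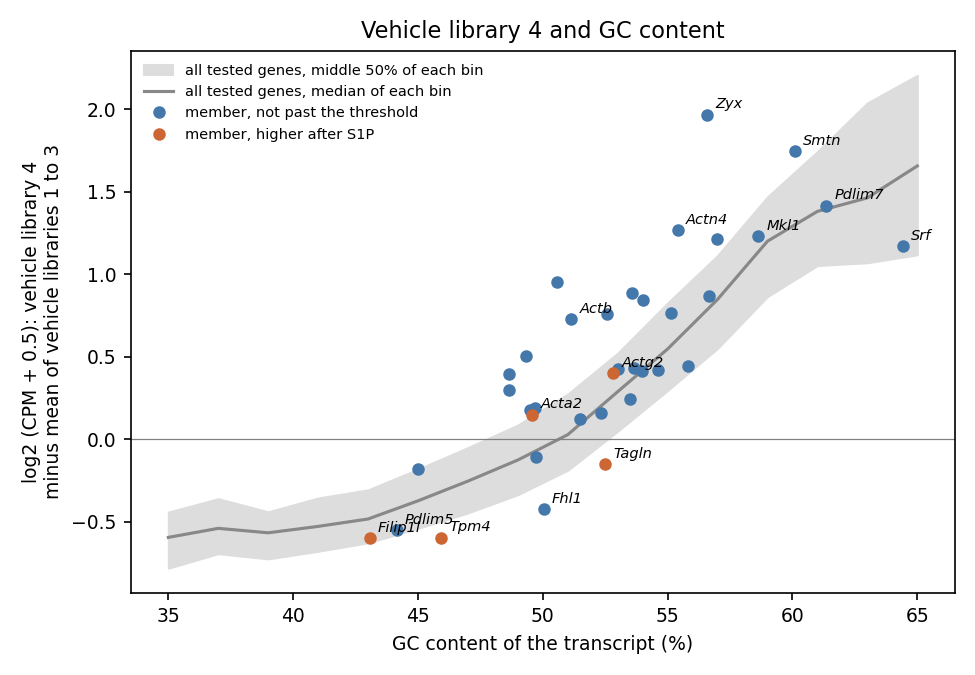
Difference in log2 (CPM + 0.5) between vehicle library 4 and the mean of vehicle libraries 1 to 3 (y axis) against the GC content of the longest coding transcript (x axis, %). Points are the 36 tested members, the grey line and band are the median and middle 50% of all tested genes in each bin, and of the members 15 lie above the band of their bin, 17 within it and 4 below, with Zyx the highest at 1.97.

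The regulators of the pathway did not pass the test in either direction. Srf held 32.3, 30.05, 23.7 and 64.6 CPM in vehicle and 34.9, 27.8, 23.1 and 25.3 CPM after S1P. Vehicle library 4 lay above all others and the other 7 libraries overlapped. The log2 fold change was -0.44 (standard error 0.30) and -0.05 without vehicle library 4 (edgeR adjusted p = 0.383 and 0.878). Mkl1 (MRTF-A) had the same shape, with 23.2, 20.5, 16.6 and 47.4 CPM in vehicle and 23.7, 23.2, 17.0 and 19.8 CPM after S1P, and its log2 fold change moved from -0.36 (SE 0.31) to 0.06.

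Mkl2 (MRTF-B) held 50.2, 40.6, 42.7 and 41.2 CPM in vehicle and 42.3, 48.6, 49.35 and 47.0 CPM after S1P. The groups overlapped, with a log2 fold change of 0.10 (standard error 0.11, edgeR adjusted p = 0.607). Myocd, the gene of myocardin, had 1 count in vehicle library 2 and 0 in each of the other 7, which allows a level of up to 0.218 CPM in each of those. Fhl2, a LIM-only cofactor that binds SRF, was at 11.9 ± 2.32 CPM without and 15.7 ± 1.98 with S1P, and Tgfb1i1, the focal adhesion protein Hic-5, at 50.4 ± 19.7 and 37.4 ± 3.32 (SD, n = 4 each). Their log2 fold changes of 0.40 and -0.43 did not pass (edgeR adjusted p = 0.221 and 0.285). Without vehicle library 4, which held 79.2 CPM of Tgfb1i1, the value of that gene was -0.13 (edgeR adjusted p = 0.489).

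Of the 9 members with a strict CArG box, Filip1l rose and the other 8 did not pass, where 5.6% of all tested genes were called higher. This count leaves out Tagln and Actg2, which had no promoter sequence to search, and Acta2, which held CArG-like boxes only. A relation of boxes to the rise was not tested. Among those 8 the log2 fold changes ran from -0.44 for Srf, whose 2 boxes are printed above, to 0.40 for Fhl2.

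Other genes known as SRF or MRTF targets were counted from another list. Like the members, this list was chosen with earlier results of these data known, so its counts are not independent support. Of 28 tested, 5 rose, 1 fell and 22 did not pass, against 5.6% of all tested genes called higher and 2.9% lower. The median log2 fold change was 0.20, against -0.04 over all tested genes. The risers named by the rule were Ankrd1, a stretch-responsive ankyrin repeat protein (log2 fold change 2.59), the matricellular genes Ctgf (2.14) and Cyr61 (1.32), and Tes, a LIM protein of focal adhesions (1.66). Known targets of the coactivator YAP, such as Ctgf and Cyr61, are among these risers. Ankrd1 was low, with 10, 9, 10 and 5 counts in vehicle libraries 1 to 4. After S1P it had 113, 47, 26 and 23 counts in libraries 5 to 8. Tes went from 15.4 ± 5.10 CPM in vehicle to 48.5 ± 13.75 after S1P (SD, n = 4 each). Its adjusted p by edgeR was 0.00918. The remaining riser, chosen after its value was seen, was the integrin gene Itga1 (0.45), and the faller was Svil, supervillin, at 164 ± 10.2 and 110.1 ± 4.35 CPM (log2 fold change -0.58, adjusted p = 0.00663).

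Markers of cell types were read beside these values. The 10 mesenchymal markers were all tested and none passed (5.6% of all tested genes were called higher and 2.9% lower), with a summed level of 19223 to 25552 CPM in vehicle and 16187 to 20976 CPM after S1P. Among them Col3a1 was lower in every S1P library than in any vehicle library, at 5681 ± 275 and 3561 ± 902 CPM (SD, n = 4 each, edgeR adjusted p = 0.0571), and Twist1 was higher in every S1P library, at 17.4 ± 0.966 and 22.3 ± 1.94 CPM (edgeR adjusted p = 0.114). Pdgfra was at 1571 ± 563 and 762 ± 285 CPM (log2 fold change -1.04, edgeR adjusted p = 0.0853). The part of these differences in the results for the members was not tested. Mature smooth muscle markers were low: of 7 found, Cnn1, Myh11, Myocd and Des failed the filter, and the sum was 32.9 to 92.0 CPM in vehicle and 32.2 to 53.4 CPM after S1P. All but Des and Synpo2 of these 7 are themselves members, and Smtn alone held 78.5 CPM in vehicle library 4. The 4 skeletal muscle markers found summed to at most 1.29 CPM in any library. Of the cardiac markers Tnni3 was at 0.273 ± 0.254 and 0.290 ± 0.103 CPM, while Tnnt2, cardiac troponin T, rose with a log2 fold change of 2.95 (edgeR adjusted p = 0.0106), at 0.404 ± 0.244 CPM without and 3.18 ± 1.34 CPM with S1P (SD, n = 4 each). Its part in the rise of the members was not tested. The endothelial markers Pecam1, Cdh5 and Kdr and the blood markers Ptprc, Csf1r and Emr1 averaged at most 0.312 CPM in a group, and Tek was at 54.8 ± 20.8 and 31.2 ± 12.1 CPM. The epithelial marker Cdh1 was at 2.00 ± 0.732 CPM in vehicle and 1.92 ± 0.311 after S1P. Listed markers not found among the deposited genes were Kcnmb1 (smooth muscle), Ckm, Myh1 and Myod1 (skeletal), Myh6, Myl7 and Nppa (cardiac), and Epcam, Krt8 and Krt18 (epithelial). The sums leave them out. Fewer cells of a kind and less RNA per cell cannot be told apart in such bulk libraries.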

How the data were processed

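The authors deposited whole-number read counts per Ensembl gene, with symbols and mm9 coordinates. STAR 2.5.3a and the mm9 build are named, per the submitters' processing notes. The sources used here name no counting tool, annotation or strand setting. The totals differ by 0.0817%, for which the sources give no reason. Libraries of a group differed by more than sampling noise in every pair (chi-square per gene of 10.3 to 119).

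Columns were matched to samples by title. Genes were filtered with filterByExpr (minimum count of 10) in edgeR 4.0.16 (R 4.3.3), scaled with trimmed mean of M-values (TMM) factors, which the CPM values use, and tested with the robust quasi-likelihood test over all 8 libraries, treatment being the only term. P-values were Benjamini-Hochberg adjusted over all 11844 genes. The SE comes from the F statistic. Transcript length, GC content and shared 50-base stretches come from the longest coding transcript of each gene in GENCODE M21, matched by Ensembl ID (17497 of 18306 genes).

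Alternatives were RLE or no composition factors, no filter or 1 CPM in 4 libraries, DESeq2 1.42.0, limma-voom 3.58.1, 1 surrogate variable (sva 3.50.0), leaving out each library, leaving out vehicle library 4 and S1P library 5 together and, added after seeing the data, offsets for GC content and length. The fits were tested on simulated counts. DESeq2 made more false calls there than its threshold allows and failed the limit first set for every tool. The limit was then applied to edgeR and limma-voom only, and DESeq2 was kept as an alternative because it had been planned, so its added calls carry less weight.

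The members and lists were chosen with earlier results of these data known. Emr1, listed under its newer symbol, was matched by Ensembl ID only after the counts for the lists had been seen. A planned list of other pathway genes is not reported here. By the rule for named genes, values in every library are given for each called member, for Acta2, Actg2, Actb, Actg1, Tagln, Tagln2, Cnn1, Myh11, Srf, Mkl1, Mkl2 and Myocd, and for the 3 tested members with the largest change short of the threshold (Smtn, Myh10 and Srf). Of the other lists, called genes are named, at most 4 in each direction. Values in every library for Myh9, Zyx, Pdlim7 and Actn4 were added after their values were seen, as were the name Itga1 and the marker genes that were not called.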

Additional observations from a re-analysis of the deposited data

Results flagged for a closer look

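In 15 of the 76 groups of 4 libraries checked (38 members, 2 groups each), a library at the edge stood far from its group, with a gap to the nearest other library that passed Dixon's 95% criterion. Chance flags about 1 in 20 groups if groups are independent, but the members share the same libraries. The check was run on the members only. No share over all tested genes is available, so the count cannot be read as a trait of the members. Vehicle library 4 accounted for 10 of the 15, and in 9 of these it was the highest. None of these 10 genes passed the test with all 8 libraries and treatment as the only term. With a surrogate variable, also on all 8, Actn4, Pdlim7 and Zyx passed, and with offsets for GC content and length Actn4 and Pdlim7 did.

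The high values of vehicle library 4, in CPM, were 1261 for Actb (others 753 to 771), 350.7 for Actg1 (198 to 217), 78.5 for Smtn (21.3 to 24.3), 675 for Myl6 (363 to 398), 738 for Tpm1 (638 to 653), 122.8 for Tpm2 (67.8 to 75.9), 383 for Actn4 (143.5 to 177), 413 for Zyx (84.6 to 121) and 56.4 for Pdlim7 (19.5 to 22.4). Pdlim5 was low there, at 151 CPM against 216 to 228. Vehicle library 2 was high for Tagln, at 32.35 CPM against 17.0 to 19.5, and remained below every S1P library.

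In the S1P group, library 7 was high for Mylk (22.8 CPM, others 12.1 to 13.65), library 6 for Pdlim7 (36.6, others 29.8 to 30.7) and Csrp1 (345, others 276 to 283), and library 8 was low for Fhl2 (12.7, others 16.5 to 16.8).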

How the results depend on the processing

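No paired analysis was made, because the labels state no pairing of vehicle with S1P libraries. The replicate numbers, 1 to 4 for vehicle and 5 to 8 for S1P, are not shared between the groups. A pairing by library order was not tested. Tagln, Acta2 and Actg2 kept their direction and call in each of 17 alternatives, with log2 fold changes of 2.23 to 2.94, 0.82 to 1.14 and 1.20 to 1.78. The 17 alternatives gave 612 values for the 36 members: 538 kept the direction and the side of the threshold, 11 lost a call (Filip1l and Tpm4), 20 gained a call and 43 changed sign, none of these past the threshold and none above 0.259 in size. The cause of these changes was not tested. Depth limits Cnn1, Myh11 and Myocd, which had at most 14 counts in any library.

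The number of members that rose was 10 with the surrogate variable or the GC and length offsets, 8 without both vehicle library 4 and S1P library 5, and 3 to 10 when a library was left out. Over all genes, higher calls were 1459 with the surrogate variable, 1178 without both libraries, 1117 with the offsets and 333 to 1133 leaving out a library. Lower calls were 804 with DESeq2, 1006, 934 and 766 in the same 3 fits and 101 to 723 leaving out a library. Of the 28 tested other SRF targets, 8 were higher with the surrogate variable, against 12.3% of all tested genes. Leaving out a library gave 3 to 5, against 2.79% to 9.49% of all tested genes.

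Signs changed as follows (log2 fold change). With the surrogate variable, Actb was 0.12, Cnn2 0.17, Myl9 0.14 and Vcl 0.0441. Without both libraries, Actb was 0.14, Tagln2 0.0300 and Cnn2 0.16. With the offsets, Tagln2 was 0.0705, Cnn2 0.12, Myl9 0.14, Srf 0.12 and Mkl1 0.0526, and with limma-voom Actb was 0.0041 and Cnn2 0.0201. Leaving out a library gave -0.12 to 0.19 for Actb, -0.0178 to 0.31 for Actg1, -0.25 to 0.0482 for Tagln2, -0.15 to 0.26 for Cnn2, -0.28 to 0.21 for Myl9, -0.14 to 0.23 for Mylk, -0.0021 to 0.33 for Tpm2, -0.0244 to 0.18 for Tpm3, -0.15 to 0.0743 for Vcl, -0.20 to 0.82 for Zyx, -0.0829 to 0.61 for Pdlim7 and -0.54 to 0.0600 for Mkl1.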
